A study of Rattus norvegicus with 12 samples.

Results

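Interferon alpha is an antiviral cytokine. It binds a receptor on nearly every cell type and, through the kinases Jak1 and Tyk2, activates a transcription factor complex with Stat2 and Irf9 among its subunits, which switches on interferon-stimulated genes by binding a short promoter element, the interferon-stimulated response element. Part of the response is direct and fast, while other genes need newly made factors such as Irf7 or Irf1, and negative regulators such as Usp18 limit the signal with time. Hepatocytes, the main cells of the liver, are targets of interferon alpha during viral hepatitis.

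The comparison described here is the change of the interferon response between 3 h and 6 h. For each probe set the response was the treated array minus the control array of the same replicate number at the same time, and the change was the response at 6 h minus the response at 3 h. All 12 of the 12 arrays of the series enter it. They hold primary hepatocytes of Wistar rats, liver cells taken from the animal with collagenase and purified on Percoll. On the day after isolation they received rat interferon alpha at 250 U/ml or none, for 3 h or 6 h, giving 4 groups of 3 arrays, which the titles number as biological replicates. Whether each number is a separate animal is not stated in the labels used here, so p-values measure the spread between these cultures. Values are log2 RMA levels of 31042 probe sets after control probe sets were left out, and a change of 1 on this scale is 2-fold. With 3 arrays a group, precision is limited by that number.

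The cells carried the defining transcripts of hepatocytes. Albumin (Alb) had a mean level of 14.67 log2, Ttr 13.94, Serpina1 14.05 and Hnf4a 11.32, against a median of 5.198 over all probe sets. Marker lists of other cell types had median levels between 3.75 for neutrophils and 5.44 for Kupffer cells and macrophages. Some members were bright: Cd14 had a mean level of 11.90 log2 and Lyz2, a lysozyme of macrophages, 10.54, and Epcam, of the cholangiocyte list, 11.28. Array medians ran from 5.16 to 5.21.

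Most interferon-stimulated genes had a larger response at 6 h than at 3 h. Responders were probe sets with an interferon effect averaged over both times at an adjusted p under 0.05 by limma with the replicate number as a block. The averaged effect is orthogonal to the change between times, so choosing on it does not fix the direction of the change. There were 317 responders with a higher level after treatment (1.02% of all probe sets) and 24 with a lower level (0.0773%). The higher responders had a median response of 0.51 log2 at 3 h and 1.07 log2 at 6 h, with a median change of 0.59 log2. Of these 317, 295 had a larger response at 6 h, in 263 it was larger in all 3 replicate numbers and in 9 it was smaller in all 3. Over all probe sets the change was above 0 in all 3 numbers for 14.4% and below 0 in all 3 for 14.2%, and its median was -0.0039 log2. A change of at least 2-fold upwards was measured in 78 of the 317 and in 0.258% of all probe sets, and 0 probe sets had one downwards.

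No single change passed the limma test with the replicate block over all 31042 probe sets, where 0 were called (0%) and the lowest adjusted p was 0.462. At an unadjusted p under 0.05 this test had 848 probe sets above 0 (2.73%) and 618 below (1.99%), and 210 of the 848 were higher responders. Testing the 3 differences of differences themselves against 0 with limma, 1 per replicate number, called 78 probe sets, all above 0 (0.251%), and 0 below. This second test, called the per-replicate test below, leaves the overall size of the response in each culture out of its error. It called 59 probe sets with a change of at least 2-fold, and 77 of its 78 calls were responders. Its calls stand for 56 named genes and 12 unnamed probe sets. Without replicate 1 in all groups, the blocked test called 18 probe sets, all higher responders. Of the genes named here these were Cenpj and Cmpk2 (limma adjusted p = 0.0273 each) and Ddx60 and Sp110 (0.0377 each). Without replicate 2 or replicate 3 the test called 0. Below, "grew" is written of genes that passed the per-replicate test, and the standard error after ± is that of the blocked fit.

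**Figure D1:**
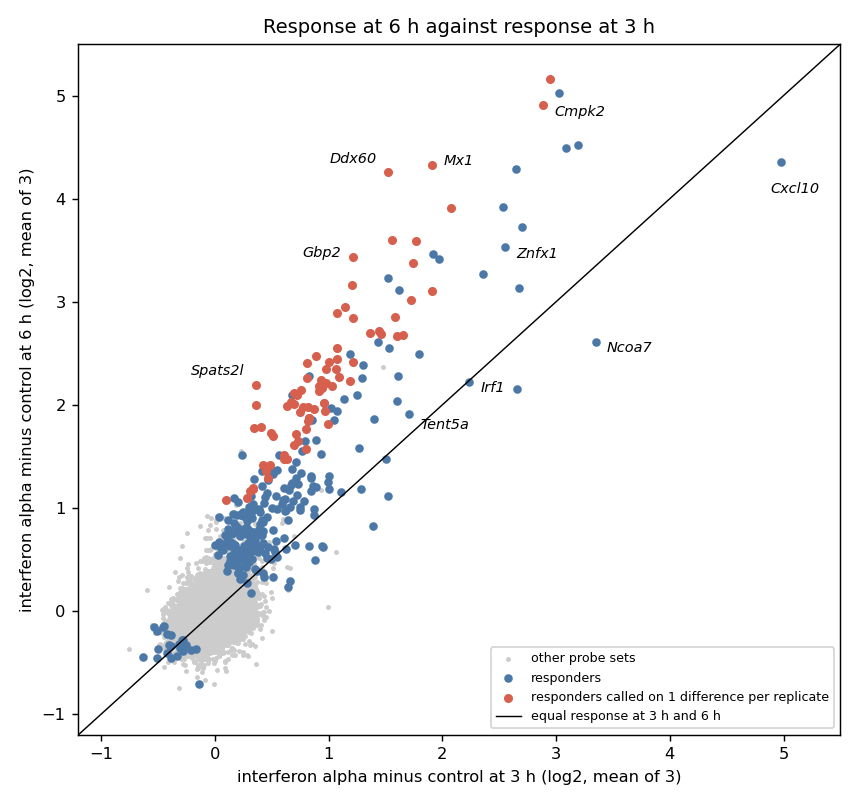
Interferon alpha minus control at 6 h against the same at 3 h for each probe set (log2, mean of 3 replicates), with responders in colour and a line of equal response. Most responders lie above the line, Ddx60, Mx1 and Gbp2 far above it, while Cxcl10 and Ncoa7 lie below it and Irf1 on it.

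The replicate cultures had responses of different size, while their median changes lay close together. Among the 317 higher responders the median response at 3 h was 0.20 log2 in replicate 1, 0.76 in replicate 2 and 0.58 in replicate 3. At 6 h it was 0.80, 1.30 and 1.05 log2. Replicate 1 had the lowest of the 3 responses for 283 of the 317 probe sets at 3 h and for 225 at 6 h. The median change was 0.66 log2 in replicate 1, 0.59 in replicate 2 and 0.55 in replicate 3, and it was above 0 for 302, 282 and 276 of the 317.

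The change has a treated and a control part, which add up to it. From 3 h to 6 h the higher responders moved by a median of 0.55 log2 in the treated arrays and of -0.10 log2 in the control arrays, against 0.0022 and 0.0099 over all probe sets. The treated level was higher at 6 h in all 3 numbers for 261 of the 317 (19.8% of all probe sets), and the control level was lower in all 3 for 139 (20.2% of all probe sets). For the 128 higher responders with an averaged effect of at least 1 log2, the medians were 0.83 log2 in the treated and -0.22 log2 in the control arrays. Fewer copies per cell and fewer cells holding a transcript cannot be told apart in such bulk RNA. For 44 of the 317 (13.9%) the change was above 0 and the control level fell by more than the treated level moved. Over all probe sets that share was 22.9%. A change above 0 was itself measured in 93.1% of the 317 and in 48.8% of all probe sets, so these shares have unlike bases.

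**Figure D2:**
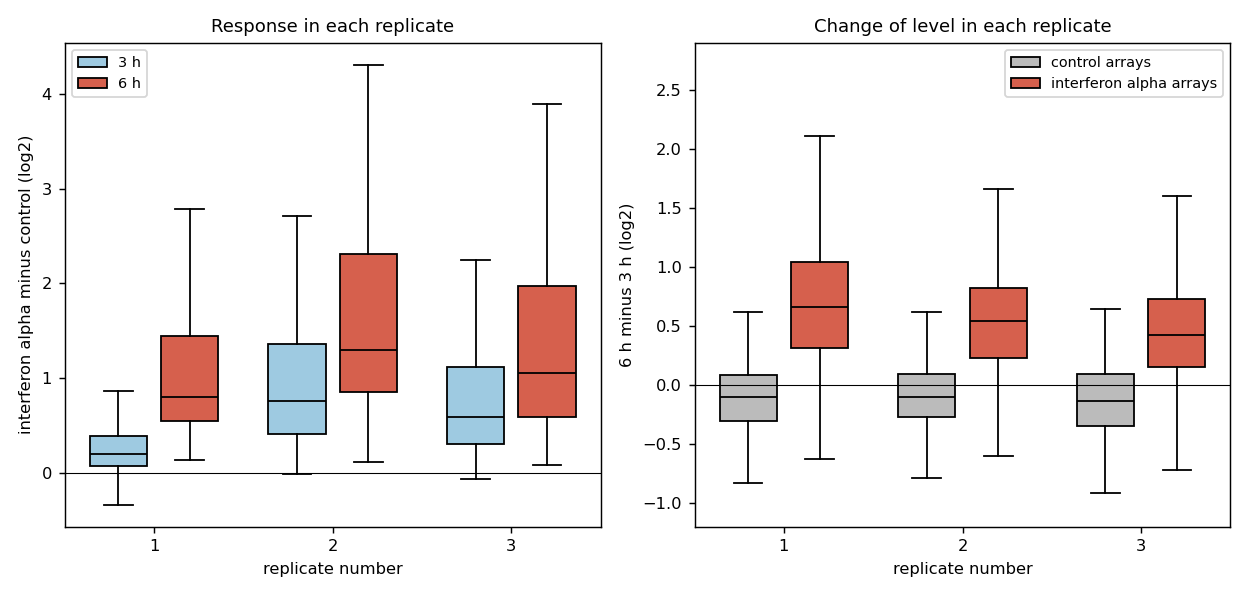
Box plots over the 317 higher responders by replicate number (line, median; box, quartiles; whiskers, the farthest value within 1.5 box lengths; points beyond not drawn). The left panel shows the response at 3 h and 6 h (log2), where replicate 1 is the lowest at both times. The right panel shows the level at 6 h minus that at 3 h (log2) in control and treated arrays, with control medians between -0.13 and -0.099 and treated medians between 0.43 and 0.66.

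Few genes of the signalling chain itself were responders. Of 12 measured genes for the receptor, its kinases and Stat factors, 2 were responders and 0 were called by the per-replicate test, with a median change of 0.09 log2. Stat2, a subunit of the interferon-activated factor, had a response of 0.57 log2 at 3 h and 1.51 at 6 h (change 0.95 ± 0.27, limma per-replicate adjusted p = 0.0616). Its DNA-binding partner Irf9 had 0.89 and 1.20 log2 (change 0.31 ± 0.23). Irf9 was a level responder: its change was not called and its 95% interval, -0.20 to 0.83 log2, lay within 2-fold on either side. Among 17 feedback inhibitors, Usp18, which blocks the receptor and removes Isg15 from proteins, was the sole responder. Its response grew from 0.98 to 2.21 log2 (change 1.23 ± 0.43, limma per-replicate adjusted p = 0.0296), and the list's median change was 0.05 log2.

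The list of interferon regulatory factors, which leaves Irf9 with the Stat factors, held 2 responders among 8 measured genes. They had different time courses, a difference that was not itself tested. Irf7, the factor that amplifies interferon gene expression, had control levels of 10.02, 8.93 and 8.99 log2 at 3 h and 9.82, 8.88 and 8.54 at 6 h in replicates 1 to 3. With interferon alpha the levels were 10.77, 11.36 and 11.54 at 3 h and 11.95, 12.30 and 12.31 at 6 h. Treated and control arrays did not overlap at either time, and the treated 6 h arrays lay above all treated 3 h arrays. The response of Irf7 grew by 1.38, 0.98 and 1.22 log2 in the 3 numbers (mean 1.19 ± 0.48, limma per-replicate adjusted p = 0.0183).

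Irf1, an early factor induced through Stat dimers, stayed level. Its control levels were 6.73, 6.64 and 5.89 log2 at 3 h and 7.10, 6.50 and 6.35 at 6 h, and its treated levels 8.09, 9.61 and 8.27 and then 9.11, 9.28 and 8.22. The treated arrays of the 2 times overlapped, while all lay above the controls. The change of its response was 0.65, -0.19 and -0.51 log2 in the 3 numbers. The responses of 2.24 log2 at 3 h and 2.22 at 6 h differed by -0.02 ± 0.41 log2, with a 95% interval of -0.92 to 0.88. The sign of that small difference was not stable, since it was positive without any 1 of 7 single arrays and without replicate 2 (0.07) or replicate 3 (0.23).

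Cytosolic sensors of viral nucleic acid took part in the growth. Of 19 measured sensors and adaptors 7 were responders, 4 grew, and 13 had a change above 0 in all 3 numbers (median over the list 0.15 log2). Over all probe sets 1.02% were higher responders and 0.251% were called above 0 by the per-replicate test. A change above 0 in all 3 numbers was measured in 14.4%. These shares stand beside the counts of the other lists too. The helicase Ddx60, which aids the sensing of viral RNA, had control levels of 5.91, 4.82 and 3.10 log2 at 3 h and 5.29, 4.16 and 3.07 at 6 h. Its treated levels were 6.00, 7.18 and 5.21 at 3 h and 8.35, 9.03 and 7.93 at 6 h. At 3 h the treated and control arrays overlapped, with replicate 1 hardly above its control, and at 6 h they did not. The change was 2.97, 2.50 and 2.74 log2 in the 3 numbers, so that the response was 6.68-fold larger at 6 h (2.74 ± 0.60 log2, limma per-replicate adjusted p = 0.00247). Control levels under about the lower quartile of the arrays (3.84 to 3.93) hold an unknown share of background, which limits this fold.

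The RNA sensor Ifih1 (MDA5) grew from 0.91 to 2.14 log2 (change 1.22 ± 0.30, limma per-replicate adjusted p = 0.0133), and Rig1, the symbol given for RIG-I, from 0.80 to 1.77 (0.97 ± 0.28, 0.0335). Znfx1, a helicase-like sensor of viral RNA, already had a response of 2.55 log2 at 3 h and reached 3.53 (change 0.98 ± 0.41), which did not pass the per-replicate test (adjusted p = 0.172).

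Antiviral effectors, the proteins that block virus replication, made up the largest list. Of 47 measured, 33 were responders, 37 had a change above 0 in all 3 numbers (14.4% of all probe sets did), and 13 grew by the per-replicate test. The median response of the list was 0.51 log2 at 3 h and 1.29 at 6 h, with a median change of 0.80 log2. By the blocked fit 8 of its responders were level, and 25 were undetermined because their 95% interval reached beyond 2-fold without a call in that fit. The 13 that grew by the per-replicate test are among these 25.

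Mx1, a GTPase that traps incoming viral particles, had control levels of 4.57, 3.74 and 3.71 log2 at 3 h and 4.07, 4.36 and 3.62 at 6 h, of which 3 lay under the lower quartiles of the arrays. With interferon alpha it was at 5.44, 6.69 and 5.63 and then at 7.88, 9.63 and 7.52. Every treated array lay above every control, and every 6 h treated array above every 3 h one. The response grew 5.33-fold (2.41 ± 0.52 log2, limma per-replicate adjusted p = 0.0101), by 2.95, 2.31 and 1.98 log2 in the 3 numbers.

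Cmpk2, a mitochondrial nucleotide kinase, had a response of 0.92 log2 at 3 h in replicate 1 and of 4.03 and 3.69 in the other two. At 6 h it was 3.70, 5.59 and 5.42 log2. Replicate 1 was low at both times, and its change, 2.78 log2, was the largest of the 3, against 1.56 and 1.72 (mean 2.02 ± 0.71, limma per-replicate adjusted p = 0.0274). Samhd1, which degrades nucleotides needed by viruses, grew from 0.89 to 2.48 log2 (1.59 ± 0.30, adjusted p = 0.0193 by the same limma test). Ifit3, which binds viral RNA together with other Ifit proteins, had 3.09 and 4.49 log2 (change 1.40 ± 0.68), which did not pass (adjusted p = 0.112).

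Of the 8 responders with the largest growth relative to its error, Gbp2 and Samhd1 are described with their lists. Mov10, an RNA helicase that restricts retroviruses, had a response of 0.20 log2 at 3 h and 1.06 at 6 h. Its change was 0.85 ± 0.14 log2, with 1.10, 0.72 and 0.75 in the 3 numbers (limma per-replicate adjusted p = 0.0557). Spats2l, a stress granule protein, had responses of 0.39, 0.49 and 0.20 log2 at 3 h and 1.75, 2.99 and 1.82 at 6 h, and grew by 1.83 ± 0.32 (adjusted p = 0.0296 by the same test). All 3 of its 6 h responses exceeded all 3 of its 3 h responses. The control level of Spats2l in replicate 3 at 6 h, 3.77 log2, lay under the lower quartiles of the arrays, where background of unknown size limits the value. Cenpj, a centriole protein, had a change of 1.27 ± 0.23 log2, Trafd1, an inhibitor of innate immune signalling, one of 0.82 ± 0.16 and Nmi, a partner of Stat proteins, one of 0.57 ± 0.11, none of which passed (limma per-replicate adjusted p = 0.103 to 0.213). Without replicate 1, Cenpj passed the blocked test (adjusted p = 0.0273), as it did when only the treated 6 h array of replicate 1 was left out (0.0426). Spats2l passed it when the treated 6 h array of replicate 2 was left out (0.00705).

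Herc3, a HECT-domain ubiquitin ligase, had a larger control part than treated part. Its control levels were 7.21, 7.10 and 6.70 log2 at 3 h and 5.70, 6.27 and 5.23 at 6 h. Its treated levels were 7.13, 7.65 and 7.28 and then 7.26, 8.17 and 7.09. The control arrays were thus all lower at 6 h, with a mean difference of -1.27 log2, while that of the treated arrays was 0.15 log2. The response grew from 0.35 to 1.77 log2 (change 1.43 ± 0.24, limma per-replicate adjusted p = 0.0102).

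**Figure D3:**
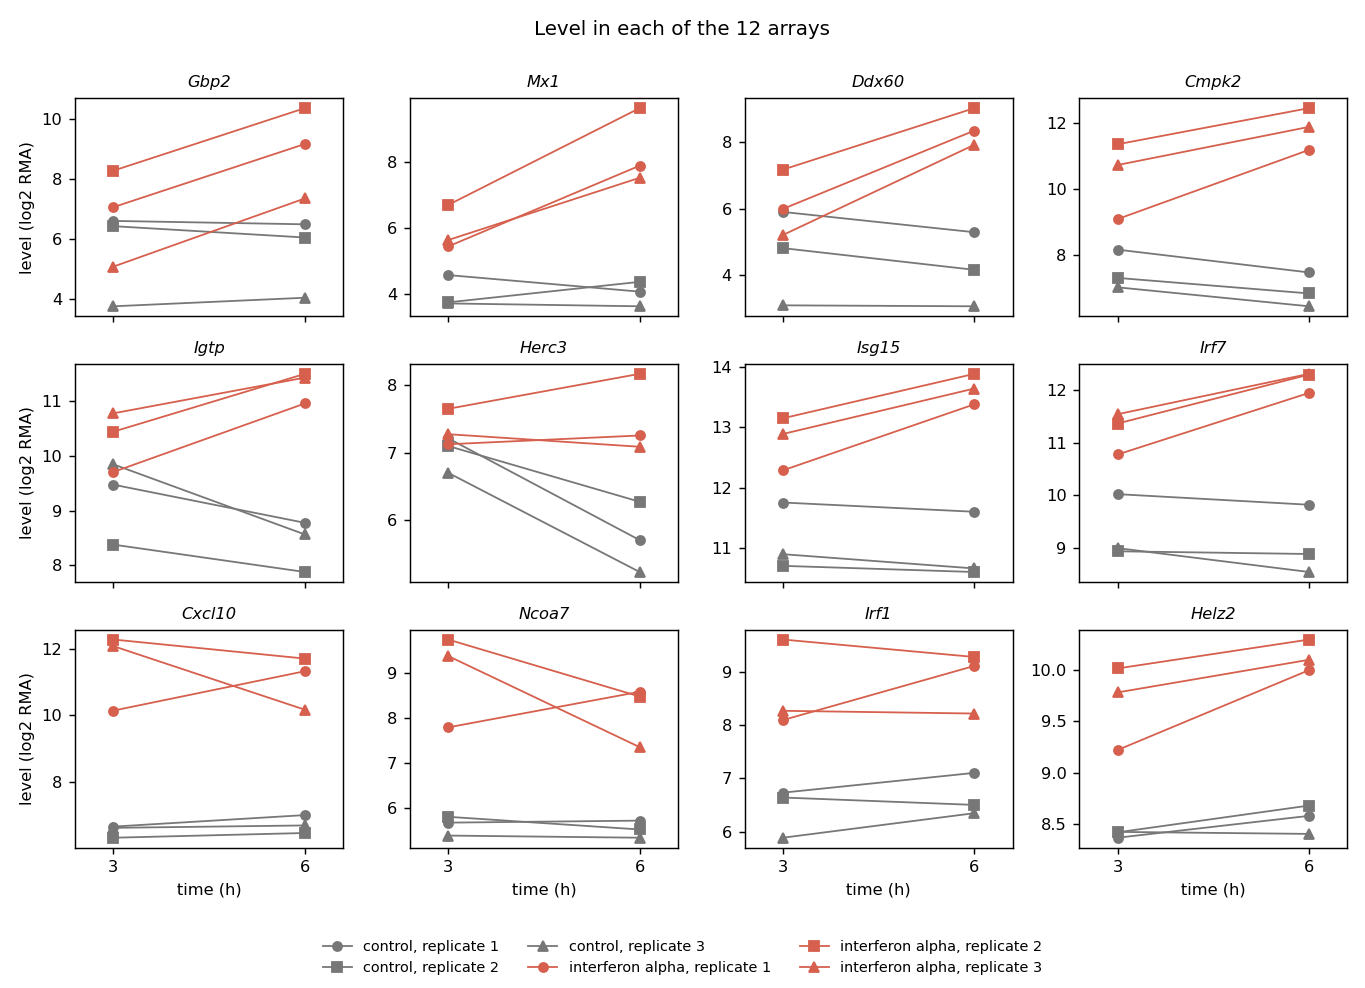
Level (log2 RMA) of 12 genes at 3 h and 6 h in each of the 12 arrays, each gene by its brightest probe set, with lines joining arrays of the same treatment and replicate number. All 3 treated lines climb for Gbp2, Mx1, Ddx60, Cmpk2, Igtp, Isg15, Irf7 and Helz2. All 3 control lines sink for Ddx60, Cmpk2, Igtp, Herc3, Isg15 and Irf7, and the treated lines of replicates 2 and 3 sink for Cxcl10, Ncoa7 and Irf1.

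The interferon-inducible GTPases of the Gbp and Irg families, which attack the vacuoles of pathogens inside cells, had the largest median change of the lists examined. All 7 measured members were responders, all 7 had a mean change of at least 2-fold upwards, and 6 of the 7 grew by the per-replicate test (0.251% of all probe sets did). The list's median response was 1.21 log2 at 3 h and 2.89 at 6 h, with a median change of 1.63. Gbp2 had control levels of 6.61, 6.43 and 3.76 log2 at 3 h and 6.49, 6.05 and 4.05 at 6 h. Its treated levels were 7.07, 8.28 and 5.08 at 3 h and 9.17, 10.37 and 7.36 at 6 h. Replicate 3 lay below the other two in all 4 groups, yet its response grew as theirs did, by 1.99 log2 against 2.22 and 2.46. Its control level at 3 h, 3.76 log2, lay under the lower quartiles of the arrays, so background of unknown size limits its change. The mean change was 2.22 ± 0.40 log2, a 4.67-fold larger response (limma per-replicate adjusted p = 0.00364).

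Gbp7 grew from 1.55 to 3.60 log2 (change 2.05 ± 0.57, limma per-replicate adjusted p = 0.00287) and Irgm from 1.58 to 2.85 (1.26 ± 0.36, 0.0205). The mean control level at 6 h minus that at 3 h was -0.74 log2 for Irgm and -0.72 log2 for Gbp7. In the treated arrays it was 0.53 log2 for Irgm and 1.33 log2 for Gbp7, so the control part was the larger for Irgm. Ifgga2l1, an interferon-inducible GTPase, had 2.54 and 3.92 log2 (change 1.38 ± 0.58) and did not pass (adjusted p = 0.222). The control arrays of the GTPase Igtp, chosen after its values were seen, were at 9.48, 8.38 and 9.85 log2 at 3 h and at 8.78, 7.88 and 8.57 at 6 h.

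Promoter sequences show an element that many of the genes that grew have near their start. The core of the interferon-stimulated response element was searched as GAAA, any 2 bases and GAAA again, on both strands, in the 300 bases from 250 before to 50 after each RefSeq gene start (assembly GRCr8). It occurred in 1034 of 27457 promoters (3.77%), in 47 of the 165 genes of higher responders that have a promoter in that table (28.5%), and in 22 of the 48 such genes called by the per-replicate test (45.8%). Among genes of level higher responders it occurred in 16 of 80 (20.0%) and among undetermined ones in 32 of 92 (34.8%). Genes of a family share sequence, so these promoters are not independent. The called and level groups also differ in size of response. An averaged effect of at least 1 log2 was measured in 68 of the 77 responder probe sets called by the per-replicate test. Among the 147 level higher responders 10 had one. Whether the element goes with growth or with size of response was not tested. Genes that grew without a match are not shown, among them Mx1, Cmpk2, Spats2l and Samhd1, whose promoters held 0 matches. Of the genes with a match, 7 that grew are shown, largest change first, and Cxcl10, whose response did not grow. The match nearest the start is given for each. They are written 5′ to 3′ on the gene's strand, with the match in capitals (TTTC, any 2 bases, TTTC where it lies on the opposite strand).
Ddx60 (chr16:33208859-33208888, minus strand): gagcagaagaGAAACTGAAActctccttca
Gbp2 (chr2:234005686-234005715, plus strand): agttttttagTTTCACTTTCattgtcttaa
Gbp7 (chr2:233948838-233948867, plus strand): gcctttgtagTTTCAATTTCagttctctgt
Igtp (chr10:42874934-42874963, plus strand): tccaggaaccGAAACTGAAAgcagttctgg
Gbp4 (chr2:233978466-233978495, plus strand): agaagcagggTTTCGATTTCggttcccttt
Irgm2 (chr10:42889858-42889887, plus strand): tctaggaaccGAAACTGAAAgctgttctgg
Ifi44l (chr2:243328654-243328683, plus strand): ttccagtgagGAAAATGAAAgtaaagggca
Cxcl10 (chr14:15988816-15988842, plus strand): cgctttgGAAAGTGAAActtaactcac

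In the 3 Gbp genes the match began 31, 41 and 10 bases before the start, for Gbp2, Gbp7 and Gbp4. In Igtp and Irgm2 it began 103 and 102 bases before it. The match of Cxcl10 began 243 bases before its start. These are matches of letters in a window, not measured binding, and the same letters stand in a gene that grew and in Cxcl10, which did not.

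The promoter of Irf1, the level responder with the largest averaged effect among those named, held 0 matches of that element. It held 1 match of the element bound by Stat dimers, searched as TTCNNNGAA, which reads the same on both strands. That element occurred in 2382 of the 27457 promoters (8.68%), in 23 of the 165 (13.9%) and in 10 of the 48 (20.8%), and among genes of level higher responders in 10 of 80 (12.5%). The limit given above for called and level genes holds for these shares too. Of the other level genes with an interval nearest 0, Irf9 had 1 match of the Stat dimer element. Tent5a, Helz2, Daxx and Arhgap32 had 0 matches of either element. The Irf1 promoter is shown over the 250 bases before the start, with the match in capitals, which began 142 bases before it.
Irf1 (chr10:38417685-38417934, plus strand): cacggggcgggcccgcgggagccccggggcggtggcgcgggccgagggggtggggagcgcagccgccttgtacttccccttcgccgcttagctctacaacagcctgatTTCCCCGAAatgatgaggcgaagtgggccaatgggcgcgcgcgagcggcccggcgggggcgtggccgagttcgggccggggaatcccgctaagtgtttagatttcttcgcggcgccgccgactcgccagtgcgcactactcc

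Isg15 is a small ubiquitin relative that enzymes attach to target proteins. This pathway had 6 responders among 7 measured genes (1.02% of all probe sets were higher responders). All 7 had a change above 0 in all 3 numbers (14.4% of all probe sets did). The list's median response was 0.89 log2 at 3 h and 1.66 at 6 h. Isg15 itself had control levels of 11.76, 10.71 and 10.90 log2 at 3 h and 11.60, 10.61 and 10.66 at 6 h, and treated levels of 12.29, 13.15 and 12.89 and then 13.38, 13.89 and 13.64. All treated arrays lay above all controls, and all 6 h treated arrays above all 3 h ones. Its response grew by 1.03 ± 0.45 log2 (limma per-replicate adjusted p = 0.0270). Its ligase Herc6 had a change of 0.92 ± 0.32 and its activating enzyme Uba7 one of 0.78 ± 0.31 on its brightest probe set, neither of which passed (limma per-replicate adjusted p = 0.0586 and 0.519). The probe sets of Uba7 disagreed: another grew by 1.23 ± 0.32 log2 (0.0349 by the same test), and the dimmest had a change of -0.06 ± 0.18.

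PML nuclear bodies and Parp enzymes restrict viruses in the nucleus and the cytosol. Of 12 measured, 9 were responders and 6 grew (1.02% of all probe sets were higher responders and 0.251% grew). A change above 0 in all 3 numbers was measured in 9 (14.4% of all probe sets), and the median change was 0.99 log2. Pml, the scaffold of these bodies, grew from 1.03 to 2.18 log2 (1.15 ± 0.27, limma per-replicate adjusted p = 0.0296). Sp110, a nuclear body protein, grew from 0.72 to 2.096 (1.37 ± 0.38, 0.0117), and Parp14, an ADP-ribosyltransferase, from 0.96 to 2.02 (1.06 ± 0.34, 0.0242). Dtx3l, a ubiquitin ligase that works with Parp9, had 1.30 and 2.26 log2 (0.96 ± 0.28), which did not pass (0.0568).

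Antigen presentation by MHC class I shows infected cells to T cells. Among 24 measured genes of this pathway, 12 were responders and 3 grew (1.02% of all probe sets were higher responders and 0.251% grew). A change above 0 in all 3 numbers was measured in 15 (14.4% of all probe sets), and the median change was 0.25 log2. Of the responders 7 were level. Tap1, a subunit of the peptide transporter, grew from 1.06 to 2.35 log2 (1.28 ± 0.36, limma per-replicate adjusted p = 0.0107). Nlrc5, which switches on class I promoters, grew from 0.63 to 1.99 (1.36 ± 0.30, 0.0101) and RT1-N3, a class Ib gene, from 0.83 to 1.87 (1.04 ± 0.31, 0.0335). The immunoproteasome subunit Psmb9 had 0.51 and 1.33 log2 (0.82 ± 0.24) and did not pass (0.0538). Among 29 constitutive proteasome subunits 0 were responders, and their median change was -0.01 log2.

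Among chemokines, the strongest responder had a smaller mean response at 6 h. Of 34 measured chemokines and cytokines 6 were responders and 2 grew, with a list median of 0.03 log2. Cxcl10, which draws activated T cells, had control levels of 6.65, 6.31 and 6.61 log2 at 3 h and 6.99, 6.46 and 6.68 at 6 h. Its treated levels were 10.14, 12.28 and 12.08 at 3 h and 11.33, 11.71 and 10.17 at 6 h. The controls were alike at both times, and the treated level was higher at 6 h in replicate 1 and lower in replicates 2 and 3. The response was 4.98 log2 at 3 h and 4.36 at 6 h. It changed by 0.84, -0.72 and -1.99 log2 in the 3 numbers (mean -0.62 ± 0.69, 95% interval -2.14 to 0.90). The change passed neither test (limma blocked adjusted p = 0.999, limma per-replicate adjusted p = 0.811). Without replicate 3 the mean change was 0.06 log2, and leaving out only its treated 6 h array gave -0.06. Without replicate 1 it was -1.35, so the value depends on which culture is left out. Cxcl11, a related chemokine that binds the same receptor, grew from 1.36 to 2.70 log2 (1.34 ± 0.57, limma per-replicate adjusted p = 0.0249).

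Ncoa7, a nuclear receptor coactivator with an interferon-inducible form, had a change above 0 in replicate 1 and below 0 in replicates 2 and 3, as Cxcl10 did. Its control levels were 5.68, 5.80 and 5.39 log2 at 3 h and 5.72, 5.52 and 5.34 at 6 h, and its treated levels 7.79, 9.74 and 9.38 and then 8.58, 8.48 and 7.35. Replicate 1 was the lowest treated array at 3 h and the highest at 6 h. The response had changes of 0.75, -0.98 and -1.98 log2 (mean -0.74 ± 0.57, 95% interval -1.98 to 0.51). The mean change passed neither test (limma blocked adjusted p = 0.999, limma per-replicate adjusted p = 0.755). Without replicate 1 the mean was -1.48 and without replicate 3 it was -0.12. In the scatter of the responses these genes are the 2 named ones lying farthest below the line of equal response.

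In all, 22 of the 317 higher responders had a change that was not above 0, of which 10 are unnamed probe sets. In 3 of the 22, all unnamed, the 95% interval lay below 0, with changes from -0.40 to -0.31 log2. Of the named genes, Maml2, a Notch coactivator, had a change of -0.15 ± 0.09 log2, Csf1, the macrophage growth factor, one of -0.10 ± 0.12 on its brightest probe set, and Sinhcaf, a histone deacetylase complex subunit, one of -0.19 ± 0.27. The mean over all probe sets of Csf1 was 0.08. Phrf1, a ring finger protein that was lower after treatment, had -0.63 log2 at 3 h and -0.44 at 6 h. None of these passed a test (limma blocked adjusted p = 0.999), and all 4 were level in that their intervals lay within 2-fold.

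Level responses are those whose interval excludes a change of 2-fold, and 171 of the 341 responders met this, while 170 were undetermined. These classes come from the blocked fit. The 77 responders called by the per-replicate test are all among the 170. Of all probe sets 99% had such an interval, most of them without a response, so the class says little for weak responders. A level call allows smaller growth: in 69 of the 147 level higher responders the 95% interval lay above 0, in 75 it spanned 0 and in 3 it lay below. Of the 170 undetermined ones, 141 had an interval above 0. Among responders with an averaged effect of at least 1 log2, only 10 of 128 probe sets were level. Among genes with an averaged effect of at least 1 log2, those whose interval stayed nearest 0 on both sides were Helz2, Irf9, Daxx, Irf1, Tent5a and Arhgap32. Helz2, a helicase that acts as a nuclear receptor coactivator, had a response of 0.85, 1.596 and 1.36 log2 at 3 h and of 1.42, 1.62 and 1.70 at 6 h (change 0.31 ± 0.19, 95% interval -0.10 to 0.72). Its response in replicate 1 was again the lowest at both times. Tent5a, a poly(A) polymerase, had 1.71 and 1.91 log2 (change 0.20 ± 0.34) and Daxx, a histone chaperone of PML bodies, 0.85 and 1.29 (0.45 ± 0.19, 95% interval 0.04 to 0.85, wholly above 0). Arhgap32, a GTPase-activating protein, had a change of -0.10 ± 0.41 log2. The intervals of Il7, the lymphocyte growth factor (0.34 ± 0.30), and of Id3, an inhibitor of helix-loop-helix factors (0.18 ± 0.40), reached just beyond 2-fold.

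Cell death genes held 4 responders among 24 measured. The death ligand Tnfsf10 (TRAIL), with a mean level of 4.63 log2, below the median probe set, grew from 1.73 to 3.02 log2 (1.30 ± 0.52, limma per-replicate adjusted p = 0.0490). All its control arrays, 3.09 to 3.79 log2, lay under the lower quartiles of the arrays, so background of unknown size limits these values. The initiator caspase Casp8 was level, with 0.66 and 1.01 log2 (0.35 ± 0.20), and Xiap, a caspase inhibitor, had 0.31 and 0.95 (0.64 ± 0.25) and did not pass (0.432).

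**Figure D4:**
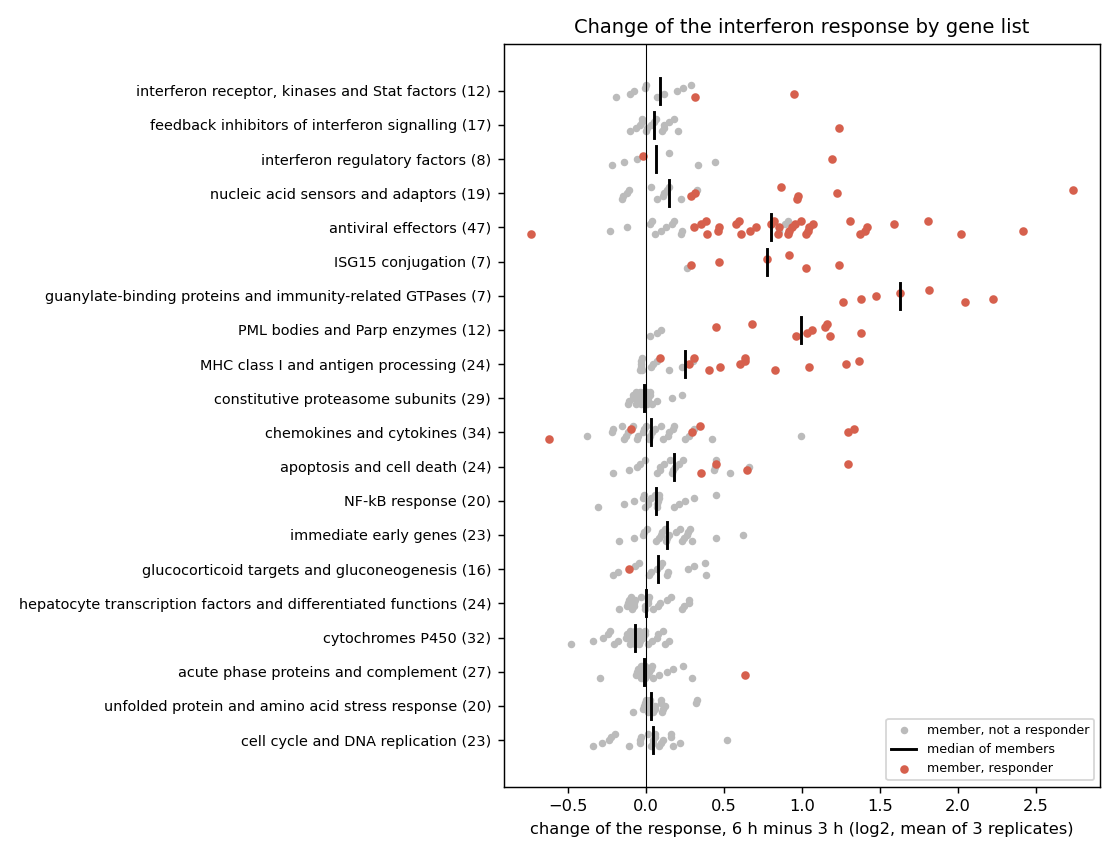
Change of the response from 3 h to 6 h (log2, mean of 3 replicates) for each member of 20 gene lists, 1 point per gene, with responders in red, the list median as a bar and the number of measured genes in brackets. Medians stand at 0.80 for antiviral effectors, 1.63 for the GTPases and 0.99 for PML bodies and Parp enzymes, and near 0 for hepatocyte functions.

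The lists of liver functions held few responders. A list counts only the brightest probe set of each gene. Dimmer probe sets of Cebpa, a gene of the hepatocyte list, were lower responders and are described below. The median change was 0.0007 log2 for 24 genes of hepatocyte identity and function, -0.07 for 32 cytochromes P450, -0.01 for 27 acute phase proteins and complement factors and 0.03 for 20 stress response genes. It was 0.06 for 20 genes of the NF-kB response and 0.14 for 23 immediate early genes, with 0 responders in either list. Complement C6 was the one responder among acute phase and complement genes, with 0.18 log2 at 3 h and 0.82 at 6 h (0.63 ± 0.16, limma per-replicate adjusted p = 0.168). Klf15, a glucocorticoid-induced factor that was lower after treatment, was level at -0.28 and -0.38 log2 (change -0.11 ± 0.14). In the 13 lists without a responder, the 2 brightest members of each had changes of -0.34 to 0.27 log2. The 6 marker lists of other cell types had 0 responders and median changes between -0.13 for liver endothelial cells and 0.04 for neutrophils. Cd14, Lyz2 and Epcam had changes of -0.0048 ± 0.11, -0.08 ± 0.10 and 0.03 ± 0.10 log2. Mpeg1, a pore-forming protein of macrophages in none of the lists and singled out with its values known, had a mean level of 10.94 log2 and grew from 0.64 to 1.47 (0.84 ± 0.25, limma per-replicate adjusted p = 0.0296). The part of other cell types in the results above was not tested.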

How the data were processed

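Per the submitters' processing notes, the authors used RMA (affy, R 2.10.0), and the table they deposited holds log2 levels. RMA equalizes the distribution of intensities between arrays, which hides a shift common to most transcripts. For the probe set definitions: not given in the sources used here. The 57 control probe sets were left out. Gene names came from the platform annotation: 20826 tested probe sets had 1 symbol, 436 had several and 9780 none, and the last 2 kinds are not named. Of the named ones, 20758 matched RefSeq genes of GRCr8 by Entrez identifier. A gene is represented by its brightest probe set over 12 arrays. No pair of arrays held identical values (0 pairs, correlations 0.979 to 0.997).

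Groups and replicate numbers came from the titles. Tests used limma 3.58.1 (R 4.3.3; lmFit, then eBayes), two-sided, with Benjamini-Hochberg adjustment over all 31042 probe sets. The main fit held 4 groups and the replicate number as a block (6 residual degrees of freedom). It was tried on simulated data whose replicate numbers differed in level but not in the size of the response. That trial cannot show how the fit behaves where responses differ in size between numbers, as they do here. Deviations from group means of arrays with the same number correlated at 0.651 to 0.829 within a time and at 0.479 to 0.736 between times, over 6 and 12 pairs, so the numbers were taken to pair the arrays. A responder was level if its change was not called and its 95% interval lay within 1 log2 either way. Alternatives covered the block, moderation, a filter on dim probe sets, normalization and leaving out arrays.

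Named genes were, among responders, the 8 with the largest growth and the 6 with the largest shrinkage relative to error, the 8 with an averaged effect of at least 1 log2 and an interval nearest 0, and up to 4 responders of each list by averaged effect. For lists without one, the 2 brightest members are given as a range. Windows of 30 bases were shown for the genes with a match and the largest change by the per-replicate test, skipping LOC symbols. The members, the lists and the rules were chosen with earlier results of these data known.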

Additional observations from a re-analysis of the deposited data

How the results depend on the processing

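The count of changes called was 0 as reported, 0 with no replicate block, with the replicate block within each time, with limma-trend, with robust moderation, without dim probe sets, after a second quantile normalization and after centring on medians (lowest adjusted p 0.170 to 1), 78 with 1 difference per replicate number, and 0 to 18 with arrays left out, 18 being without replicate 1. With 1 difference per replicate number 60 of its 192 responders grew, 89 were level and 43 undetermined. With no replicate block there were 135 responders, 29 level and 106 undetermined. Limma-trend gave 260 level ones, and a margin of 1.5-fold in place of 2-fold 57 level and 284 undetermined. With a replicate number or a single array left out, responders ran from 111 to 364, those that grew from 0 to 18, level ones from 23 to 204 and undetermined ones from 88 to 189. The median change of the 317 higher responders, a result added after the data were seen, ran from 0.49 to 0.69 log2. The mean over all probe sets of Csf1 was 0.079 in place of -0.10. Leaving out arrays moved the change of Arhgap32 from -0.65 to 0.36, of Cxcl10 from -1.41 to 0.062, of Id3 from -0.10 to 0.52, of Irf1 from -0.47 to 0.38, of Sinhcaf from -0.45 to 0.047 and of Tent5a from -0.11 to 0.45. The other named responders kept their direction in every alternative run. For dim probe sets, at or under the quartiles of 3.84 to 3.93, background of unknown size limits the changes. The cause of these shifts was not tested.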

Other observations

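The 24 probe sets that were lower after interferon alpha, taken over both times, had about the same response at each time, with a median of -0.39 log2 at 3 h and -0.34 log2 at 6 h and a median change of 0.01. All 24 were level, 6 had a change above 0 in all 3 replicate numbers and 6 below. Of the 24, 4 are probe sets of Cebpa, a transcription factor of hepatocyte and fat cell differentiation, a gene singled out after its values were seen. Their averaged responses lay between -0.37 and -0.28 log2 and their changes between 0.01 and 0.30 log2. The brightest Cebpa probe set had responses of -0.32 log2 at 3 h and -0.18 at 6 h and did not pass the test of the averaged effect (limma adjusted p = 0.225).

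Outside the responders, the per-replicate test called 1 probe set, of the zinc finger gene Zfhx4. Its response was -0.13 log2 at 3 h and 0.83 at 6 h, and the change was 0.74, 1.21 and 0.91 log2 in the 3 numbers (mean 0.95 ± 0.18, limma per-replicate adjusted p = 0.0405). The other probe sets of Zfhx4 had changes of 0.62, -0.30 and 0.22 log2 and were not called.

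Among the 32 cytochromes P450, enzymes of drug and steroid oxidation, 12 had a change below 0 in all 3 numbers and 4 above, against 14.2% and 14.4% of all probe sets. None was a responder, and the per-replicate test called 0. The lowest change, -0.48 ± 0.61 log2, was that of Cyp7a1, the rate-limiting enzyme of bile acid synthesis.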
